A study of Mus musculus with 3 samples.

Results

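The granzymes and cytotoxic granule genes described here are 9 genes taken by name from the 22457 genes counted: Gzma, Gzmb, Gzmk, Prf1, Nkg7, Ccl5, Serpinb9, Srgn and Ctsc. The choice used no rule on measured values, but it was made with earlier results of these data known. The libraries hold poly(A) RNA of regulatory T cells (Treg cells), primary CD4 T cells that depend on the transcription factor Foxp3 and restrain other immune cells, taken from a male adult mouse aged 4 months. The labels give no genotype, strain, treatment or tissue of origin. They describe 3 libraries as technical replicates 1, 2 and 3 of 1 biological replicate, so there is a single group and no condition to compare. An SD or a p-value below therefore measures the spread between libraries of 1 sample and not the spread between animals. The 8 genes listed for Treg cells (Foxp3, Il2ra, Ctla4, Ikzf2, Cd4, Cd3e, Tnfrsf18 and Nrp1) were all detected in every library. Detection, which 47.3% of all genes also reached, is only a weak check of the Treg label, and no other T cells were measured for comparison.

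Cytotoxic lymphocytes store granzymes, which are serine proteases, together with the pore-forming protein perforin in secretory lysosomes. On contact with a target cell the granules fuse with the plasma membrane, perforin lets the granzymes into the target, and granzyme B cleaves caspases and their substrates there. The proteoglycan serglycin holds the granule contents, cathepsin C trims the granzymes into their active form, and the serpin encoded by Serpinb9 blocks granzyme B that leaks into the cytosol of the cell that made it. The programme is best known in CD8 T cells and natural killer (NK) cells, and activated Treg cells are known to use granzyme B as well.

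The libraries held 3316275, 3079004 and 2782259 counts. Levels are counts scaled to a library total of 1000000 (CPM), and levels of different genes are compared only after division by the coding length (CPM per coding kilobase). Genes of other lists were named by their CPM, which sets no order between genes of different length. In bulk RNA, fewer cells with a transcript and less transcript per cell cannot be told apart. All 9 members reached 1 CPM in each library, against 47.3% of all genes. Together they took 0.177% ± 0.0056 of the counts (SD, n = 3 libraries). Their median was 191 CPM, beside 18.0 CPM over the 15171 genes with any count, and 203 CPM per coding kilobase, beside 13.0 over the 14916 coding genes with any count.

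A property of the deposited counts bears on 4 of the members and is given before their values. Gzmb, Nkg7, Ccl5 and Srgn had 1.92, 2.12, 2.13 and 2.17 counts per coding base, on average over the libraries. Of the 8433 coding genes with 100 or more summed counts, 99% lay under 1.78 counts per coding base and 99.9% under 2.26, and the highest gene had 3.45, so these 4 members lay within the upper 1%. At 1.8 or more counts per coding base, the raw counts of a gene varied between the libraries with a median coefficient of variation (CV) of 1.30%, while the library totals varied by 8.75%. Under 0.2 counts per coding base, the median CV was 16.9%. Srgn had 989, 992 and 983 counts, a range of 0.92%, while the totals ranged over 19.2%. For Gzmb, Nkg7 and Ccl5 the CV of the raw counts was 5.57%, 4.83% and 5.77%. Whether counts at this density still follow the amount of transcript was not tested, so the levels of these 4 genes are given as deposited, and their order among themselves is not read as an order of abundance. The plot of count spread against density shows where each member stood.

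**Figure D1:**
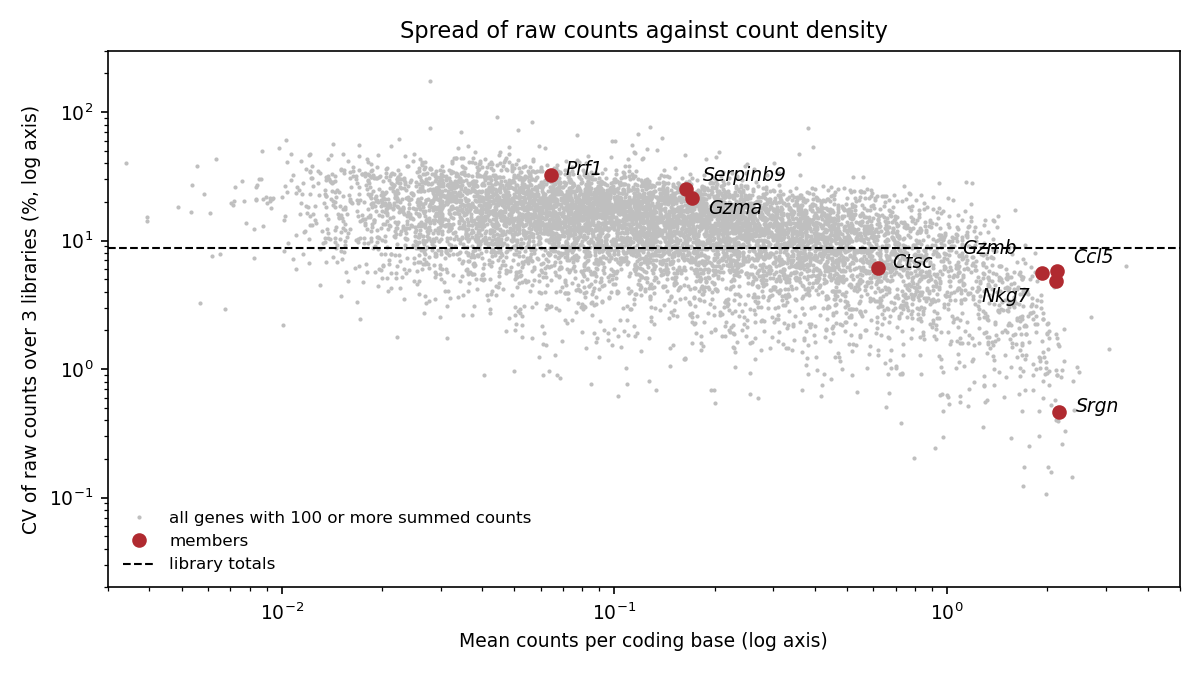
Spread of raw counts between the 3 libraries (CV in percent, log axis) against the mean counts per coding base (log axis) for genes with 100 or more summed counts (grey), 8 of the members (red; Gzmk had 63 summed counts) and the library totals (dashed line at 8.75%). Prf1, Serpinb9 and Gzma stand above the line, and Gzmb, Nkg7, Ccl5 and Srgn stand below it among the densest genes, with Srgn at 0.46%. The 2 genes with equal counts in all libraries are not drawn.

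Among the granzymes, Gzmb had the most counts per coding base. Gzmb encodes granzyme B (chromosome 14, 56258838 to 56262260, minus strand, GRCm38, 5 exons). It had 1484, 1454 and 1334 counts in libraries 1, 2 and 3, which is 447, 472 and 479 CPM. The 3 levels lay close together at 466 ± 16.8 CPM, and their exact Poisson intervals at 95% (425 to 471, 448 to 497 and 454 to 506 CPM) overlapped. Gzma, which encodes the tryptase granzyme A (chromosome 13, 113093825 to 113100981, minus strand, 5 exons), had 179, 126 and 125 counts. That is 53.98, 40.9 and 44.9 CPM, highest in library 1, with overlapping intervals (46.4 to 62.5, 34.1 to 48.7 and 37.4 to 53.5 CPM). Gzmk, for granzyme K, another tryptase (chromosome 13, 113171608 to 113225908, minus strand, 5 exons), had only 18, 23 and 22 counts, or 5.43, 7.47 and 7.91 CPM. Its intervals were wide (3.22 to 8.58, 4.74 to 11.2 and 4.96 to 12.0 CPM), and at this depth no difference between the libraries was detectable. The Gzmk gene span overlaps Esm1 on the other strand, and Esm1 had 2, 0 and 1 counts.

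Per coding base, the counts of Gzmb exceeded those of Gzma 9.41-fold, 13.1-fold and 12.1-fold in libraries 1, 2 and 3, and those of Gzmk 87.8-fold, 67.3-fold and 64.6-fold. The direction was the same in all 3 libraries. Since Gzmb is one of the 4 dense genes, these and all later ratios with Gzmb or Ccl5 compare deposited counts, and their size is not read as a ratio of transcript amounts. Gzma in turn exceeded Gzmk 9.33-fold, 5.14-fold and 5.33-fold.

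The other 7 granzyme genes were sparse. Gzmc, a neighbour of Gzmb in the granzyme cluster, had 43, 49 and 37 counts, or 14.1 ± 1.61 CPM. Gzmm, which encodes granzyme M, had 20, 6 and 14 counts, or 4.34 ± 2.13 CPM. These were the only members of that list at 1 CPM or more in each library, 2 of 7. Gzmf had 2, 2 and 9 counts, Gzmd and Gzme each had 0, 0 and 1, and Gzmn had 0, 1 and 0. Gzmg was at 0 counts throughout; with a limit of 3 counts, that allows 0.905, 0.974 and 1.08 CPM. The list summed to 19.6, 18.8 and 22.3 CPM, and neither Gzmc nor Gzmm, the 2 members with enough counts to test, differed between the libraries (chi-square test, adjusted p = 0.700 and 0.122).

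Part of the coding sequence of Gzmb recurs in Gzmc, which bears on how a read is assigned between the pair. Of 711 coding 31-mers of Gzmb, 2.67% occur in a transcript of another gene, and that gene is Gzmc. The longest shared stretch runs over 49 bases and is shown in capitals, with 15 bases on each side. The whole window shown, flanks included, runs over the junction of exons 3 and 4 in both genes.

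Gzmb, coding bases 337 to 415, chromosome 14, 56260367 to 56260581, minus strand: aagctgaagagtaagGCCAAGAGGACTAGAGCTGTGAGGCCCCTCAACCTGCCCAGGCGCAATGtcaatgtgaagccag
Gzmc, coding bases 340 to 418, chromosome 14, 56232424 to 56232699, minus strand: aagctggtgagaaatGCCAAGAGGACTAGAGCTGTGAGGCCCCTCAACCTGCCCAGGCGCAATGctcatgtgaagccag

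A read that lies within the capitals cannot be told apart between the genes, and reads on either side can. Gzmc also shared 31-mers with Gzmd, Gzme, Gzmf and Gzmg, 12.5% of its own in all. Gzmc had 1 count for every 33.5 ± 3.34 of Gzmb per coding base (34.7, 29.8 and 36.2 in the libraries), so its level is uncertain to the extent that the authors' counting placed such reads. Gzma, Gzmk and Gzmm shared no coding 31-mer with any other gene, and the plot of granzyme, perforin and serpin counts gives each gene's counts.

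**Figure D2:**
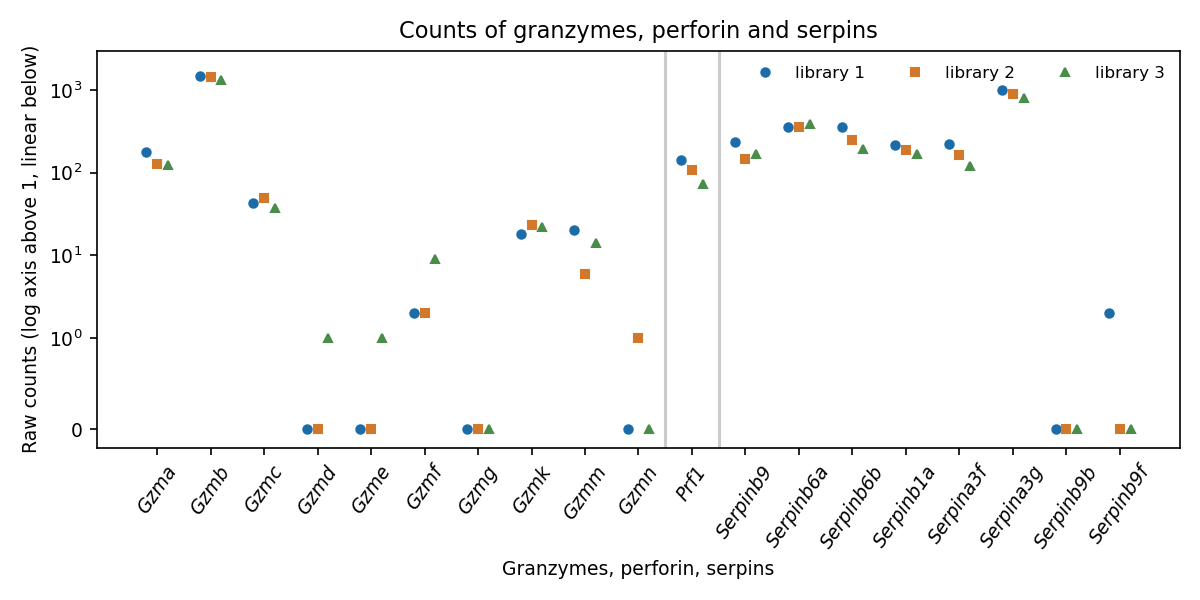
Raw counts in libraries 1 (circles), 2 (squares) and 3 (triangles) for the granzyme genes, Prf1 and serpin genes (axis logarithmic above 1 count and linear below). Gzmb lies between 1334 and 1484 counts, Gzma between 125 and 179, and Gzmd, Gzme, Gzmg and Gzmn at 0 or 1; of the serpins, Serpina3g has the most counts and Serpinb9b has no count.

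Perforin lay below all other members but Gzmk per coding kilobase, though above the median of coding genes with any count (20.8 against 13.0). Without regard to length, its 34.6 CPM lay below the median of detected genes, 45.6 CPM. Its counts differed between the libraries. Prf1 (chromosome 10, 61297833 to 61304680, plus strand, 3 exons), which encodes the pore that lets granzymes into a target cell, had 142, 108 and 72 counts. That is 42.8, 35.1 and 25.9 CPM (34.6 ± 8.48), highest in library 1 and lowest in library 3. The intervals of libraries 1 and 3 (36.1 to 50.5 and 20.2 to 32.6 CPM) did not overlap. The counts differed beyond Poisson noise (chi-square test against the library totals, adjusted p = 0.0142 over the 10043 genes tested). Of those genes, 22.7% passed this test, and the counts of list genes that differed, given further on, stand beside that share. The difference was no longer called when library 1 or library 3 was left out (adjusted p = 0.176 and 0.373). Per coding base, the deposited counts of the dense gene Gzmb exceeded those of Prf1 23.4-fold, 30.2-fold and 41.6-fold. Of 3 other pore-forming proteins, Gsdmd, the gasdermin that caspases cleave in pyroptosis, had 639, 602 and 556 counts (196 ± 3.60 CPM), Gsdme had 6, 5 and 5, and Mpeg1, the perforin-like gene of macrophages, had 2, 9 and 2.

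Serpinb9, the inhibitor of granzyme B (chromosome 13, 33003250 to 33017957, plus strand, 8 exons), had 236, 147 and 170 counts. That is 71.2, 47.7 and 61.1 CPM (60.0 ± 11.7), highest in library 1 and lowest in library 2. The intervals of these libraries (62.4 to 80.8 and 40.3 to 56.1 CPM) did not overlap, and the difference passed the test (chi-square test, adjusted p = 0.00623). Without library 1 or library 2 it did not (adjusted p = 0.131 and 0.321). Per coding base, Serpinb9 and Gzma had nearly the same counts in each library, with Gzma over Serpinb9 at 1.01, 1.14 and 0.98. Deposited counts of Gzmb exceeded those of Serpinb9 9.52-fold, 14.98-fold and 11.9-fold.

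Among 12 other serpin genes, 5 were detected. Serpina3g, an inhibitor of cathepsins, had 1004, 908 and 812 counts (297 ± 5.62 CPM). Serpinb6a had 121 ± 16.3 CPM, Serpinb6b 85.9 ± 20.2, Serpinb1a 62.3 ± 2.71 and Serpina3f 54.6 ± 11.4. Of these 5, Serpinb6a, Serpinb6b and Serpina3f differed between the libraries (chi-square test, adjusted p = 0.0110, 1.48e-05 and 0.00656). Serpinb6b, with 359, 248 and 192 counts, and Serpina3f, with 220, 166 and 121, were highest in library 1 and lowest in library 3, as Prf1 was, while Serpinb6a was highest in library 3. Counts of this family are uncertain, since Serpina3g, Serpina3f, Serpinb6a, Serpinb6b and Serpinb1a shared 29.6%, 41.2%, 14.2%, 13.7% and 18.8% of their coding 31-mers with other genes.

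The close paralogs of Serpinb9 had almost no counts. Serpinb9b, Serpinb9c, Serpinb9e and Serpinb9g had no count, as had Serpinb2, Serpinb9d had 1, 0 and 0 counts, and Serpinb9f had 2, 0 and 0. These 6 paralogs shared between 25.4% (Serpinb9b) and 89.6% (Serpinb9g) of their coding 31-mers with other genes, so low counts on them are uncertain. Of the coding 31-mers of Serpinb9, 8.70% occur elsewhere, and Serpinb9b is the gene that shares the most of them. The longest stretch shared with Serpinb9b, shown in capitals with 15 bases on each side, covers 62 bases. It is a place where reads of the pair could be confused, and shorter shared stretches were not listed.

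Serpinb9, coding bases 246 to 337, chromosome 13, 33008083 to 33008798, plus strand, exons 4 and 5: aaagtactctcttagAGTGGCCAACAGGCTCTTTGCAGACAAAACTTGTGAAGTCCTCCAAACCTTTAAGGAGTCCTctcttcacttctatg
Serpinb9b, coding bases 246 to 337, chromosome 13, 33032993 to 33033557, plus strand, exons 3 and 4: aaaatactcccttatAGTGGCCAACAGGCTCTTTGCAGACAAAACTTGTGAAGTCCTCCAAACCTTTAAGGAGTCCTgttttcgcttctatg

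With no count on Serpinb9b in any library, no read was assigned to its own sequence outside the shared part.

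Srgn encodes serglycin, the proteoglycan core protein of the granule (chromosome 10, 62493833 to 62527451, minus strand, 4 exons). It had 989, 992 and 983 counts, which is 298, 322 and 353 CPM (325 ± 27.6), highest in library 3, the library with the lowest total. The raw counts were nearly equal, and the intervals of libraries 1 and 3 in CPM (280 to 317 and 332 to 376) did not overlap. The chi-square test against the totals passed (adjusted p = 0.00715). At a density of 1.8 or more there were 80 genes, of which 55 (68.8%) passed that test and all 55 were highest in library 3, so the call on Srgn is one that most genes of its density received. It was lost without library 1 or library 3 (adjusted p = 0.166 and 0.313).

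Enzymes that build the glycosaminoglycan chains carried by serglycin were measured in a list of 12, of which 11 were detected, with a median of 21.1 CPM. Chst12, a chondroitin 4-sulfotransferase, had 77.9 ± 2.05 CPM, and B3gat3 and B4galt7, which build the linker to the core protein, had 47.2 ± 9.71 and 41.3 ± 6.10. Csgalnact2, which starts chondroitin chains, had 35.5 ± 8.12 CPM with 141, 115 and 74 counts. Ndst2, the heparin N-sulfotransferase of mast cells, had 33.1 ± 4.30. Csgalnact1 had 2.24 ± 0.789 CPM, B3galt6 2.19 ± 0.292 and Chst11 0.874 ± 0.373. Of the 9 with enough counts, B3gat3 and Csgalnact2 differed between the libraries (chi-square test, adjusted p = 0.0170 and 0.0244).

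Ctsc encodes cathepsin C, also called dipeptidyl peptidase I, which removes the last residues that keep granzymes inactive (chromosome 7, 88278085 to 88310888, plus strand, 7 exons). It had 964, 930 and 854 counts, or 291, 302 and 307 CPM (299.9 ± 8.34). The 3 levels lay within 1.06-fold of each other, their intervals overlapped (273 to 310, 283 to 322 and 287 to 328 CPM), and no difference was called (chi-square test, adjusted p = 0.640). At 0.619 counts per coding base, Ctsc lay below the dense range. Its span overlaps Gm26522 on the other strand.

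All 12 other granule proteases and cystatins were detected, with a median of 190 CPM. Ctsb had 596 ± 17.6 CPM, Ctsa 565 ± 37.8, Ctsd 519 ± 35.6, Ctss 471 ± 34.2 and Ctsz 221 ± 13.9; all are lysosomal peptidases. Ctsd is uncertain, since 63.4% of its coding 31-mers occur in other genes. Cstb, a cytosolic cystatin, had 105 ± 7.78 CPM. Ctsh, the other cathepsin known to activate granzyme B, had 22, 65 and 45 counts, or 14.6 ± 7.36 CPM, lowest in library 1. Ctsl had 6.28 ± 1.22 CPM. Per coding base, Ctsc exceeded Ctsh 34.3-fold, 11.2-fold and 14.9-fold. Ctsw, a cathepsin of cytotoxic lymphocytes, had 699, 544 and 568 counts, and Cst7, the cystatin that restrains cathepsin C, had 482, 503 and 469; both were chosen after their values were seen. The test between libraries passed for 6 of the 12, among them Ctsw (chi-square test, adjusted p = 0.0301) and Ctsh (adjusted p = 0.000124), beside 22.7% of all genes. Of the others that passed, Ctsa, Ctsd, Ctss and Cst3 lay at 1 to 1.8 counts per coding base, where 35.4% of genes passed. Of the 134 genes called in that class, 113 were highest in library 3, as Ctss and Cst3 were. Ctsa and Ctsd went the other way: Ctsa was highest in library 1, Ctsd in library 2, and both were lowest in library 3.

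Nkg7, a granule membrane protein needed for degranulation (chromosome 7, 43437073 to 43438249, plus strand, 4 exons), had 1086, 1075 and 993 counts. That is 327, 349 and 357 CPM (345 ± 15.3), with overlapping intervals (308 to 348, 329 to 371 and 335 to 380 CPM) and no called difference (chi-square test, adjusted p = 0.264).

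The machinery of granule transport and fusion was present throughout: all 15 genes measured of 16 listed were detected, with a median of 80.8 CPM. Unc13d, the priming factor Munc13-4, had 519 ± 45.8 CPM, and Stxbp2, the Munc18-2 partner of syntaxin 11, had 386 ± 19.3. Ap3b1, an adaptor subunit for granule cargo, had 299 ± 17.1, the lysosomal membrane gene Lamp2 251 ± 16.7 and the SNARE gene Vamp8 193 ± 11.8. At 1.94 counts per coding base, Vamp8 lay in the dense range, so its level is given as deposited. Arl8b had 44.6 ± 4.06 CPM, Hps4 31.7 ± 6.31 and Lamp1, a marker of degranulation, 19.5 ± 4.63. Between libraries, 3 of 15 differed (chi-square test), a share near the 22.7% of all genes: Unc13d with 1734, 1732 and 1311 counts, Lyst with 336, 245 and 171 (adjusted p = 1.12e-05) and Hps1 with 235, 266 and 182. Lyst and Hps1 were chosen after their values were seen; Lyst is the lysosomal trafficking gene mutated in beige mice, and it was highest in library 1 and lowest in library 3.

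Ccl5 encodes the chemokine RANTES, which cytotoxic cells release (chromosome 11, 83525778 to 83530518, minus strand, 3 exons). It had 612, 590 and 546 counts, or 185, 192 and 196 CPM (191 ± 5.89). In CPM its relative spread was the smallest of the dense members, while in raw counts its CV of 5.77% was the largest of them. The intervals (170 to 200, 176 to 208 and 180 to 213 CPM) overlapped, and no difference was called (chi-square test, adjusted p = 0.708).

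Of 9 other chemokines, 5 were detected. Ccl4, another chemokine that cytotoxic cells release, had 190, 172 and 99 counts, or 49.6 ± 12.1 CPM, lowest in library 3. Ccl1 had 26.3 ± 9.58 CPM, Xcl1 19.5 ± 7.73, Cxcl10 15.3 ± 5.07 and Ccl3 6.42 ± 1.08. Ccl4, Ccl1, Xcl1 and Cxcl10 differed between the libraries (chi-square test, adjusted p = 0.00228, 0.000550, 0.00146 and 0.0270), and Ccl1, with 84, 53 and 101 counts, was lowest in library 2. Ccl9 and Ccl20 had no count. Per coding base, Ccl5 exceeded Ccl4 3.26-fold, 3.47-fold and 5.58-fold. Among receptor genes, Ccr3 had 109, 91 and 98 counts, Ccr1 had 65, 44 and 48, and the scavenging receptor Ackr2 had 0, 1 and 0.

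Per coding kilobase the members spanned from Srgn to Gzmk, with 4 of them close together at the top. Srgn, Ccl5, Nkg7 and Gzmb stood at 712 ± 60.6, 699 ± 21.6, 696 ± 30.8 and 629 ± 22.6 CPM per coding kilobase. The ranges of Srgn, Ccl5 and Nkg7 over the libraries overlapped, so these neighbours did not differ beyond their spread. The range of Gzmb did not overlap with that of Nkg7, but no order of abundance is read among these 4 dense genes. Ctsc, outside the dense range, stood at 203 ± 5.64. Gzma and Serpinb9 came next at 55.4 ± 7.95 and 53.5 ± 10.5, with overlapping ranges. Prf1 at 20.8 ± 5.10 and Gzmk at 8.79 ± 1.68 were lowest and did not overlap with their neighbours. Divided by the full exon length in place of the coding length, the 4 dense genes took the order Nkg7, Gzmb, Ccl5 and Srgn. Ctsc, Gzma, Serpinb9, Prf1 and Gzmk kept the order of their means, at 51.6, 46.3, 17.2, 13.4 and 4.99 CPM per exon kilobase. The gaps depended on the length used: Ctsc came close to Gzma, and Serpinb9 moved away from Gzma and close to Prf1. Whether their ranges overlap by exon length was not examined. The plot of member levels shows the genes in both units.

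**Figure D3:**
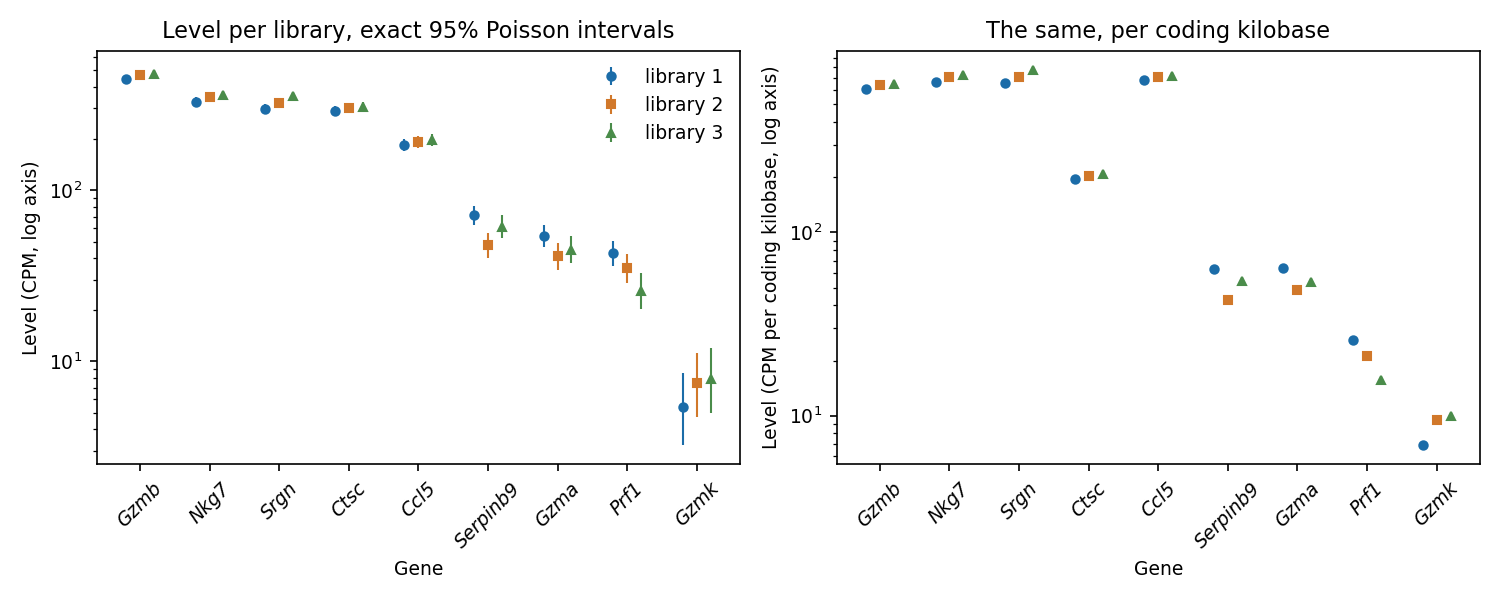
Levels of the 9 members in libraries 1 (circles), 2 (squares) and 3 (triangles), in CPM with exact 95% Poisson intervals (left) and in CPM per coding kilobase (right), both on log axes. On the right, Srgn, Ccl5, Nkg7 and Gzmb lie between 604 and 775, Ctsc near 203, Gzma and Serpinb9 near 54, and Prf1 and Gzmk lowest.

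The genes nearest to Gzmb in CPM per coding kilobase, by the largest absolute log2 difference over the 3 libraries, were Cd82 (0.032), Lck (0.039) and Arhgdia (0.040), among 8433 coding genes. These 3 lie at 628 to 629 CPM per coding kilobase, in the same dense range as Gzmb, where raw counts vary less between the libraries than the totals do (1571, 1569 and 1470 for Cd82). Those nearest to Gzma were Nup50 (0.057), Rad52 (0.069) and Cdca7 (0.074). With 3 libraries of 1 sample, this is a likeness of level and spread only.

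Between the libraries, 3 of the 9 members (Prf1, Serpinb9 and Srgn) differed beyond Poisson noise, beside 22.7% of all genes tested. Of the 3, Prf1 and Serpinb9 were highest in library 1 and Srgn in library 3. Gzma, with an unadjusted p = 0.0468 by the chi-square test, did not pass after adjustment (adjusted p = 0.140), and Gzmb (adjusted p = 0.303) and Gzmk (adjusted p = 0.608) did not either. By edgeR's quasi-likelihood test, which takes in the spread between libraries, none of the 9 members was called in any of the 3 contrasts of a library with the rest, beside 0.395% of genes in any contrast and 0.114%, 0.052% and 0.281% in the contrasts of libraries 1, 2 and 3. Each contrast sets 1 library against 2, so the spread comes from 2 libraries and the lone one is assumed to vary like them; a missing call does not show that levels were equal. The lowest adjusted p of any member by that test was 0.412 (Prf1 in library 3), and 2 of 9 members, Prf1 and Serpinb9, had an unadjusted p under 0.05.

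Other ways of killing and factors of the cytotoxic programme were measured alongside. All 7 death ligands and receptors were detected: the receptor Fas had 176 ± 16.3 CPM, Tnfrsf1a 57.95 ± 7.89, Tnfsf10 (TRAIL) 51.3 ± 7.50, Lta 45.9 ± 11.0, Fasl 30.8 ± 3.29, Tnf 30.6 ± 6.91 and Tnfrsf10b 7.90 ± 2.84. Fas, Lta and Tnf differed between the libraries (chi-square test, adjusted p = 0.0381, 0.00356 and 0.0447), each lowest in library 1. Of 12 transcription factors, 11 were detected. Stat4, which carries IL-12 signals, had 487 ± 11.5 CPM, uncertain because 41.4% of its coding 31-mers occur in other genes. Id2 had 259 ± 15.7, Bhlhe40 240.2 ± 17.4 and Prdm1 (Blimp-1) 190 ± 44.3, while Hopx had 32.9 ± 6.51, uncertain because 60.3% of its coding 31-mers occur in other genes. Prdm1, with 747, 628 and 390 counts, was highest in library 1 and lowest in library 3 (chi-square test, adjusted p = 1.14e-11), and of the 11 tested only Prdm1 and Runx3 (adjusted p = 0.00715) differed. Eomes, the T-box factor of CD8 T and NK cells, had 6, 6 and 2 counts, Zeb2 had 12, 9 and 9 and Zfp683 had 20, 11 and 8. Tbx21 (T-bet) had 90, 94 and 58 counts and Runx3 had 61, 93 and 48; both were chosen after their values were seen, since motifs of their families are described next.

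The bases before the start of the granzyme and perforin genes are shown as a description only. Any relation of these bases to the levels of the genes was not tested. RefSeq (GRCm38.p6) held a start for 8 of the 9 members, all but Ccl5, and 2 for Srgn. The 250 bases before each start were searched on both strands for 7 short motifs: RUNX (TGTGGT), T-box (GGTGTGA), AP-1 (TGANTCA), CRE (TGACGT), STAT (TTCNNNGAA), ETS (AGGAAG) and the box named TATA (with letters TATAAA). No match overlapped another. Capitals mark the matches.

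Gzmb, chr14:56262335-56262584, minus strand: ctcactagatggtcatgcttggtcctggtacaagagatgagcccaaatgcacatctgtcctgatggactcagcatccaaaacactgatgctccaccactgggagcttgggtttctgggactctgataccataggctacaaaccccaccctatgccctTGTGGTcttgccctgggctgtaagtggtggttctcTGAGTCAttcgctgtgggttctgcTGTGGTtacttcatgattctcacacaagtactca
Gzma, chr13:113100982-113101231, minus strand: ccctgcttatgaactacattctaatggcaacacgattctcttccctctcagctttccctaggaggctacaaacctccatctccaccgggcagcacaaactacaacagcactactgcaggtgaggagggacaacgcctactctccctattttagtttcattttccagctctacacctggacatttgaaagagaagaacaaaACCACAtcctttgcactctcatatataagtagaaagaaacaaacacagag
Gzmk, chr13:113180966-113181215, minus strand: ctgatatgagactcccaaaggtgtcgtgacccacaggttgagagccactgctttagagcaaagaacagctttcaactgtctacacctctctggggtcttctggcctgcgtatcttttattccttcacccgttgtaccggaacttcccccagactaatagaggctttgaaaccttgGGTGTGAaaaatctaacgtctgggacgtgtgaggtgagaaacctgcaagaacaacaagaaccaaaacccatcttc
Prf1, chr10:61297586-61297835, plus strand: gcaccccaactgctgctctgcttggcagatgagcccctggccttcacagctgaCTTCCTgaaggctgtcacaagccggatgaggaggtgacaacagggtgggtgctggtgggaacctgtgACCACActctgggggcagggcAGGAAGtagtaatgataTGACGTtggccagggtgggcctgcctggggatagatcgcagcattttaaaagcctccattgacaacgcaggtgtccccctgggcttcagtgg

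In Gzmb, the RUNX letters lie 93 to 88 and 34 to 29 bases before the start, with an AP-1 match at 58 to 52. Gzma holds 1 RUNX match, at 50 to 45 bases, and Gzmk holds 1 T-box match and no RUNX match; its RefSeq start lies inside the span that GENCODE gives the gene. Prf1 holds 1 RUNX, 1 CRE and 2 ETS matches. Of the members searched but not shown, Nkg7 holds 1 RUNX, 1 T-box, 1 STAT and 1 ETS match. Ctsc holds 1 T-box, 1 STAT and 2 ETS matches, and Serpinb9 holds none. The 2 windows of Srgn hold 1 TATA match in the one, and 1 RUNX and 1 CRE match in the other. Among 32851 mouse promoters of the same length, 14.0% held the RUNX letters, 3.33% the T-box, 6.75% the AP-1, 6.47% the CRE and 29.5% the ETS letters. The STAT letters occurred in 7.02% of them and the TATA letters in 12.4%. These matches describe the letters of the windows and say nothing of binding in these cells.

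Most markers of other cell types that carry cytotoxic granules were low or at 0. Cd8a had 0, 0 and 1 counts, while Cd8b1 had 71, 62 and 89 (24.5 ± 6.51 CPM), highest in library 3 (chi-square test, adjusted p = 0.0323). Of 9 genes that define NK and innate lymphoid cells, 1 was detected, and the list summed to 5.13, 25.0 and 10.8 CPM. Klra4 was at 0 in all libraries, Ncr1 had 0, 3 and 2 counts, Klre1 0, 2 and 0 and Klrb1c 4, 3 and 3. Tyrobp (4, 37 and 8 counts) and Fcer1g (3, 21 and 11), adaptors that myeloid cells also use, held most of the sum in library 2. In library 1, where the sum of the list was lowest, Prf1, Gzma and Serpinb9 were highest and the other 6 members lowest. Of all members, only Prf1, Serpinb9 and Srgn were called different between the libraries by the chi-square test. Gamma delta T cell genes had 3 of the 5 measured detected and summed to 7.24, 11.7 and 8.63 CPM, with Sox13 at 0. Mast cell and basophil genes had none of 8 detected and at most 0.719 CPM in sum, with Mcpt4, Mcpt8, Tpsb2, Cma1, Ms4a2 and Gata2 at 0. Neutrophil and myeloid granule genes had 1 of 8 detected and summed to 3.32, 7.15 and 6.47 CPM, with Mpo and Ctsg at 0.

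Of the receptors that NK and cytotoxic T cells share, Klrg1, known on effector Treg cells, had 901, 843 and 873 counts (286 ± 23.7 CPM) and Cd226 had 141 ± 4.02 CPM. These held most of the list's sum of 432, 454 and 476 CPM, and Tyrobp, Crtam and Cd244a stood at 5.37 ± 5.82, 5.20 ± 2.27 and 4.16 ± 0.956.

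Markers of B and myeloid cells also varied between the libraries. B cell markers summed to 63.9, 154 and 179 CPM, with 5 of 8 detected, and all 7 tested differed between the libraries, each lowest in library 1 (chi-square test). Monocyte and macrophage markers summed to 18.7, 57.2 and 28.4 CPM (2 of 8 detected), dendritic cell markers to 23.8, 35.4 and 29.5 (2 of 6), plasma cell markers to 122, 135 and 135 (3 of 5) and erythroid markers to 6.33, 14.0 and 30.9 (2 of 6). Xbp1 (76.6 ± 3.12 CPM) and Irf4 (39.8 ± 8.79) held most of the plasma cell sum, which hides changes in the others. Jchain had 6, 14 and 68 counts (chi-square test, adjusted p = 2.55e-18), Mzb1 3, 12 and 15 and Sdc1 1, 0 and 4. Ccr9 (17.0 ± 1.79 CPM) held the largest part of the dendritic cell sum, while Flt3 had 1, 25 and 6 counts. The members summed to 1722, 1768 and 1833 CPM, and the Treg genes to 3353, 3405 and 3429. Both sums include dense genes, among the Treg genes Cd3e and Tnfrsf18 (2.17 and 1.90 counts per coding base). In CPM, Gzmb, Nkg7, Ccl5, Srgn, Ctsc and Gzmk were lowest in library 1 and highest in library 3, as the B cell sum was. Of these genes, only Srgn was called different between the libraries (chi-square test, adjusted p = 0.00715). Gzmb, Nkg7, Ccl5 and Ctsc ranged over only 1.06-fold to 1.09-fold. Prf1 was highest in library 1 and lowest in library 3. The place of the maximum depended on the scaling. With TMM or DESeq2 sizes, Gzmb, Nkg7, Ccl5 and Ctsc were highest in library 2, while Srgn and Gzmk stayed highest in library 3. In the densest class, to which Gzmb, Nkg7, Ccl5 and Srgn belong, 77 of the 80 genes were highest in library 3. The part of cells of other types in the levels of the members was not tested. The plot of summed marker levels sets the lists side by side.

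**Figure D4:**
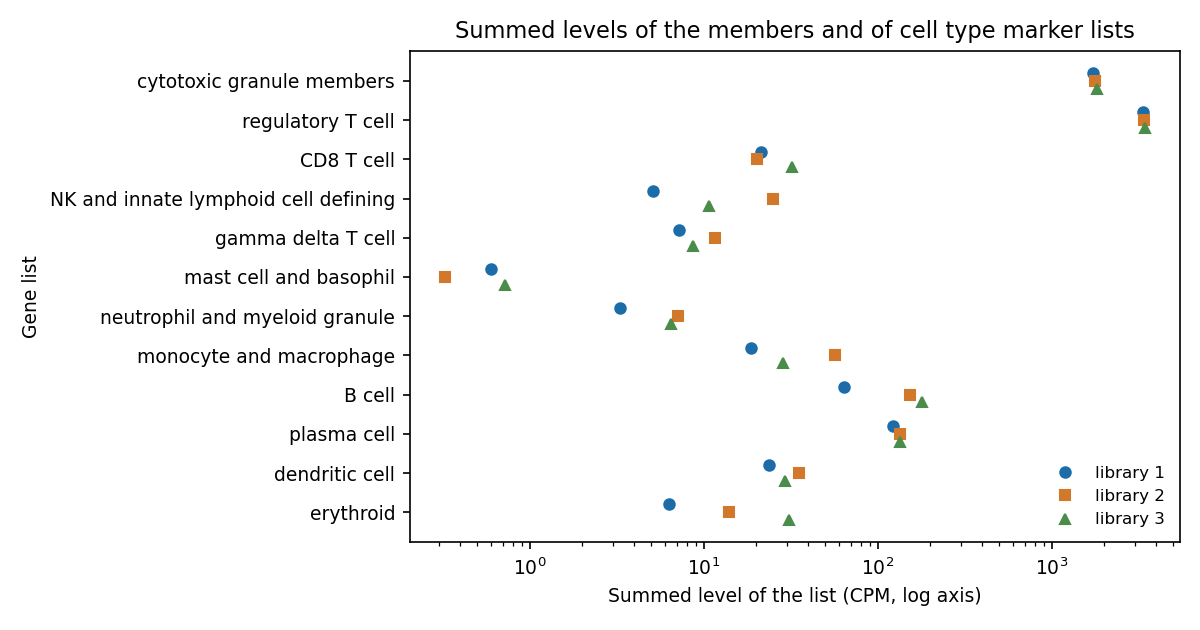
Summed level in CPM (log axis) of the 9 members, of 8 Treg genes and of marker lists of other cell types in libraries 1 (circles), 2 (squares) and 3 (triangles). The members lie between 1722 and 1833 CPM in all libraries, while NK and innate lymphoid genes lie between 5.13 and 25.0 and B cell genes between 63.9 and 179.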

How the data were processed

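The deposited values are raw counts per gene, 1 table per library, made by the authors from alignments to mouse mm10 with the GENCODE M4 annotation, per the notes deposited with them. Not given in the sources used here are the aligner, the counter, whether strand was used and how duplicates were treated. The members and the gene lists were chosen with earlier results of these data known.

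Identifiers, with versions removed, were matched to GENCODE M21 (GRCm38, the same assembly): 22195 of 22457 matched, and the rest held 0.136% of the counts. Of 23 lists with 191 entries, Vamp7 and Trdc were not analysed here. CPM used the library total, and the coding length is the union of coding exons. Each gene with 30 or more summed counts was tested for equal shares of the library totals (chi-square test, 2 degrees of freedom, two-sided, Benjamini-Hochberg adjustment, threshold 0.05). edgeR 4.0.16 (TMM, filterByExpr, quasi-likelihood test of each library against the rest) and DESeq2 1.42.0 size factors served as alternatives. Poisson intervals are exact at 95%, the limit for no count is 3 counts, and both cover counting error only, since reads are not independent molecules. Overlapping genes on the other strand cannot be told apart where counting ignored strand.

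Named were all members, every granzyme, chemokine receptor and CD8 gene of the lists, up to 5 highest, 3 lowest and all zero members of each other list, the 3 genes nearest to Gzmb and Gzma, and genes sharing 31-mers with a member; exceptions are marked in the text, and 1 gene is not reported here.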

Additional observations from a re-analysis of the deposited data

How the results depend on the processing

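The median level of the members stayed between 188 and 194 CPM under TMM, median-ratio and dense-gene-free totals and with any library left out, and all 9 members stayed detected under each detection rule tried. Leaving a library out can only ease detection, so those settings could not change it. The 54 recomputed member levels moved by less than 1 SD. With a library left out this was certain in advance, since the mean of the remaining libraries always lies within 1 SD of the mean of all 3. The changes of scaling kept the mean library size and changed the size of each library by a factor of 0.989 to 1.02. A mean level could hardly move under them either. These settings therefore say little about how firm the levels or their median are. By exon length, 5 of the 9 members kept their place in the order per coding kilobase, and with a library left out 6 to 7 did. The number of genes that differed between libraries was 2277 in the main test and 2201 to 2282 under other scalings, 904 to 1466 with a library left out (fewer samples), and 38 in any contrast by edgeR, which takes in the spread between libraries. The number of members that differed was 3 under every scaling and without a minimum count, 0 to 2 with a library left out (0 without library 1, Prf1 and Srgn without library 2, Serpinb9 without library 3), and 0 by edgeR. No paired analysis was possible because there is 1 group. Gzmk, at 18 to 23 counts, and the sparse granzymes are limited by depth.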
